A study of Homo sapiens with 12 samples.

Results

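The genes described here encode regulators of ubiquitin chains in tumour necrosis factor (TNF) signalling: the ubiquitin-editing enzyme A20 (TNFAIP3), its ABIN partners (TNIP1, TNIP2, TNIP3), the deubiquitinase CYLD, the adaptors TRAF1, TRAF2 and TRAF3, and the cellular inhibitors of apoptosis BIRC2 and BIRC3. They were chosen by name, and a gene was measured where a probe set carried its symbol alone. That held for 8 of the 10, out of 17958 genes compared, with 1 such probe set each. The expression of TRAF2 and BIRC3 was not analysed here, and both enter only the promoter counts.

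Total RNA came from BT549, a line of triple-negative breast cancer cells, and was read on Affymetrix arrays that cover whole transcripts. All cultures were transfected for 72 hours, with a control siRNA (siControl) or with a pool of siRNAs against c-Jun (siJun), the AP-1 subunit encoded by JUN. They then had vehicle or TNFα (TNFalpha) for 6 hours, which gave 4 groups of 3 arrays, 12 in all: each siRNA with each treatment. Below, control cells had the control siRNA and knocked-down cells the c-Jun siRNA. The design asks how much of the TNFα response depends on c-Jun. A single cell line was used, no label ties an array to a culture of its own, and p-values therefore measure the spread among these arrays, which may be technical.

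When TNF binds its receptor, TRAF2 brings the ubiquitin ligases BIRC2 and BIRC3 to the complex, and the chains they build recruit the kinases that switch on NF-kB. A20 and CYLD take such chains apart or replace them, and ABIN proteins carry A20 to them. TRAF3, together with TRAF2 and the same ligases, holds the alternative NF-kB pathway in check by promoting the degradation of its kinase. TNFAIP3 and BIRC3 are textbook NF-kB targets, so that the pathway makes its own brakes.

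The stretches before the start sites are shown first, as a description of sequence, and a link between them and the TNFα response was not tested. RefSeq promoters (GRCh38.p14) were found for all 10 genes, in windows of 250 bases before each start. The kappaB consensus of 10 bases, searched on both strands, occurred in that window for 6 of the 10: TNFAIP3, TNIP1, TNIP3, CYLD, TRAF3 and BIRC3. It is held by 9.96% of all 35116 windows of this length and by 11.8% of all 27305 genes. A gene was counted where any of its listed starts had a match. Of the 2 starts of TNIP1 and the 3 of CYLD only the first had one, and in TNIP3 the second of 3 had none. Genes with more starts have more windows to match, and which start BT549 cells use was not measured. A shorter form, GGGNNTTCC on either strand, which overlaps the consensus, occurred for TNFAIP3, TNIP3, TRAF3 and BIRC3. This form is held by 5.78% of all windows and 7.01% of all genes. The AP-1 motif TGANTCA, which reads alike on both strands, occurred before the start of 0 of the 10. It is held by 6.57% of all windows and 8.06% of all genes. In windows of 300 bases, which run past the start, it occurred for 1 of the 10, TNIP3, and for 9.37% of all genes. Below are the last 100 bases before the start for TNFAIP3 (chr6:137867159-137867258, plus strand), for the first listed start of TNIP1 (chr5:151081035-151081134, minus), for the first and the third start of TNIP3 (chr4:121227484-121227583 and chr4:121164322-121164421, minus), for TRAF3 (chr14:102777349-102777448, plus) and, as the member that did not pass any test, for TNIP2 (chr4:2756337-2756436, minus). Capitals mark the kappaB consensus. Apart from that of TNIP2, the starts printed all hold a match within these 100 bases. Those of TRAF1 and BIRC2 hold none and are not printed.
TNFAIP3: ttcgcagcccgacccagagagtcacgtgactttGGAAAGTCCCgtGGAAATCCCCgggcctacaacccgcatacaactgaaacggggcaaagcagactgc
TNIP1, the first start: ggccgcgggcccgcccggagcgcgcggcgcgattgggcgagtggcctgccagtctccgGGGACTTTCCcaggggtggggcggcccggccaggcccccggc
TNIP3, the first start: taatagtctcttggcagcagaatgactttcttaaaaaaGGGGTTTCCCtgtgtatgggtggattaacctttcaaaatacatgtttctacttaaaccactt
TNIP3, the third start: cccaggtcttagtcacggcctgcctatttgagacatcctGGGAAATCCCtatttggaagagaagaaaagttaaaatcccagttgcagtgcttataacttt
TRAF3: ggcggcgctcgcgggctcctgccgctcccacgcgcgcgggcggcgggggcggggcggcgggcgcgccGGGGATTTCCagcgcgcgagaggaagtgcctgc
TNIP2: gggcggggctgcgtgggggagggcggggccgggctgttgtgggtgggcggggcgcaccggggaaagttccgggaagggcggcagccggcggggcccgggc
TNFAIP3 has a pair of matches, at -67 to -58 and at -55 to -46 counted from the start. That of TNIP1 lies at -42 to -33, those of TNIP3 at -62 to -53 and -61 to -52, and that of TRAF3 at -33 to -24. CYLD has its match farther out, at -189 to -180. TRAF1 and BIRC2, which rose with TNFα, have no match of the consensus in their windows. A looser planned form, GGGNNNTCC, which includes the shorter one, occurred before the start for 7 of the 10, TRAF1 and BIRC2 among them. It is held by 21.6% of all genes. In windows of 300 bases the shorter form occurred for 6 of the 10, TRAF1 and CYLD among them, and for 7.95% of all genes. A match is a description of these letters, and binding was not measured here.

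JUN checks the labels. Its log2 expression under vehicle was 10.35 ± 0.0052 (mean ± SD, n = 3) in control cells and 9.83 ± 0.021 in knocked-down cells, and the arrays did not overlap. The siRNA left 69.5% of the JUN signal with vehicle and 61.1% with TNFα on 1 probe set, so that by this signal the knockdown is partial. The level of c-Jun protein was not measured here. TNFα itself raised JUN, by 0.72 log2 units in control cells and by 0.53 in knocked-down cells. Knocked-down cells with TNFα stood at 10.36, which was 0.010 ± 0.032 (SE) above control cells with vehicle (limma, adjusted p = 0.855). Their JUN signal was thus lower only against control cells with TNFα, and not against control cells with vehicle. Array medians ran from 5.62 to 5.68, and precision is limited by having 3 arrays a group. All 6 genes listed as high in this line were bright (group means of 8.28 or more), among them the keratin gene KRT18, which stood lowest. The hormone receptor genes ESR1 and PGR were dim (4.35 and 3.76 in control cells with vehicle). ERBB2 stood at 8.86 and the luminal factor GATA3 at 9.01 in those cells, so that these markers were not absent. GATA3 stood lower with TNFα, at 7.68 under control siRNA and 7.96 under c-Jun siRNA. CDH1, also listed as low in this line, ran from 4.45 in control cells with vehicle to 5.48 in knocked-down cells with TNFα. Of the leukocyte markers the defining PTPRC and CD3E were dim in control cells with vehicle (3.83 and 3.96). CD68 was bright, at 9.52 to 9.63 over the 4 groups. ITGAM stood at 4.68 with vehicle under each siRNA, and with TNFα at 5.46 under control siRNA and 5.38 under c-Jun siRNA. Of the endothelial markers KDR was dim (3.81), and TEK ran from 5.78 in control cells with vehicle to 6.71 in knocked-down cells with vehicle. Summed over markers, the range over the 4 groups was 31.2 to 31.8 for 6 measured leukocyte genes and 22.6 to 23.4 for 5 endothelial genes, and their part in the results was not tested. As the RNA is that of whole cultures, fewer expressing cells and less RNA per cell cannot be told apart. The name of the array c-Jun siRNA TNFα replicate 3 reads as a second run of replicate 1. The difference between that pair of arrays had an SD over genes of 0.121, near the low end of the range of 0.119 to 0.142 for pairs within groups. Replicates 1 and 2 of the same group differed most of all such pairs, at 0.142. Whether replicates 1 and 3 are 1 sample run again was not tested, and if so the group holds fewer than 3 separate samples. Replicates 1 and 3 were kept as separate samples, and averaging them changed no call of a regulator.

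TNFα with control siRNA raised 7 of the 8 regulators (limma, adjusted p under 0.05 over all 17958 genes), where 35.7% of all genes were called and 13.8% were called higher. Their median log2 fold change was 1.59, against -0.023 over all genes. TNIP2 was the exception. With c-Jun siRNA the same 7 rose, where 29.6% of all genes were called and 11.3% were called higher, and the median was 1.31 against -0.016. In the knocked-down cells 4 of the 7 rises were smaller by the test of the difference itself, those of TNFAIP3, TNIP3, CYLD and TRAF3. Of all genes 5.47% passed that interaction test, 3.59% as lower and 1.88% as higher.

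**Figure D1:**
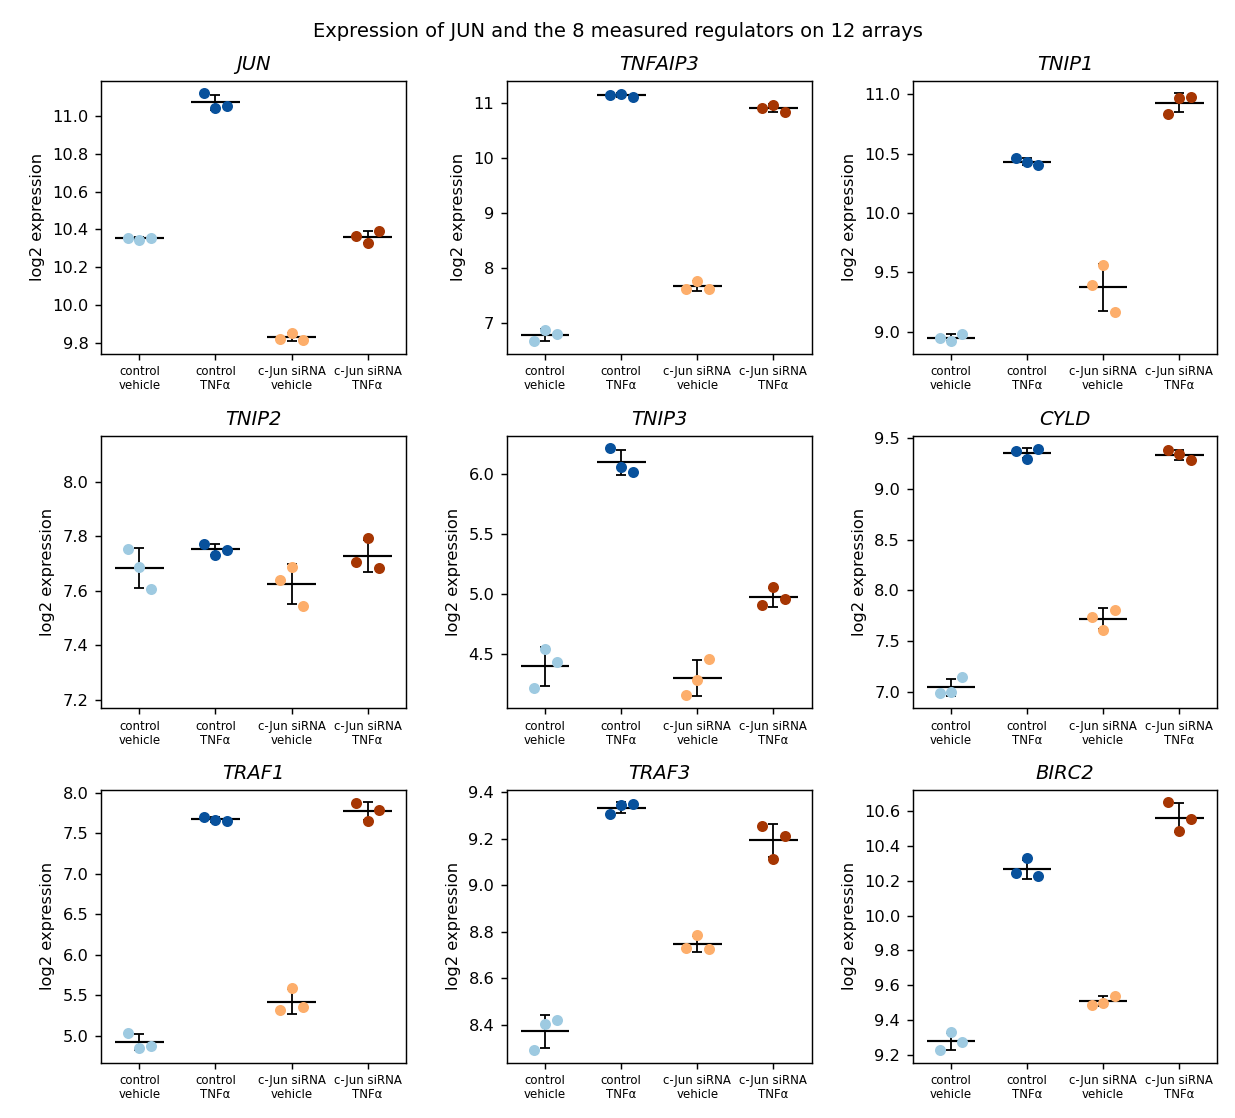
Log2 expression (vertical axis, scaled for each gene) of JUN and the 8 measured regulators on the 12 arrays, by siRNA and treatment; points are arrays, horizontal lines group means and bars SDs over 3 arrays. In TNIP3 the c-Jun siRNA TNFα arrays (4.91 to 5.06) lie well under the control siRNA TNFα arrays (6.02 to 6.22), while in CYLD these groups overlap.

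TNFAIP3 (probe set 8122265) encodes A20, which both removes ubiquitin chains and adds others that mark proteins for destruction. Its log2 expression was 6.67, 6.88 and 6.79 on the control siRNA vehicle arrays and 11.15, 11.18 and 11.11 on the control siRNA TNFα arrays. On the c-Jun siRNA arrays it was 7.61, 7.77 and 7.62 with vehicle and 10.92, 10.98 and 10.84 with TNFα. None of the 4 groups overlapped: knocked-down cells started higher and ended lower. The TNFα rise of 4.37 ± 0.055 (log2, SE), or 20.7-fold, was the 15th largest of all genes. In knocked-down cells it was 3.24 ± 0.055, or 9.46-fold (limma, adjusted p = 2.44e-20 and 4.16e-18).

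The smaller fold change of TNFAIP3 came with a change at both ends. Knockdown raised it by 0.89 ± 0.055 with vehicle (adjusted p = 6.13e-10), or 1.85-fold, and lowered it to 84.9% with TNFα (-0.24 ± 0.055, adjusted p = 0.00303). The interaction of -1.13 ± 0.078 (adjusted p = 3.9e-08) is the difference of these effects, and the higher level with vehicle is the larger of its parts. Knocked-down cells with TNFα still stood 17.5-fold above control cells with vehicle. The array names carry a position column, and in each siRNA comparison within a column 1 group is a single array, so that its spread is taken from the other arrays there. Knocked-down arrays with vehicle and with TNFα share no column, so that their TNFα response cannot be compared within one. Within columns 7 and 9 the TNFα-end difference was -0.17 and -0.27 (adjusted p = 0.249 and 0.139).

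TNIP1 (probe set 8115210) encodes ABIN1, which binds ubiquitin chains and A20. On control siRNA arrays it read 8.95, 8.92 and 8.98 with vehicle and 10.46, 10.43 and 10.40 with TNFα. With c-Jun siRNA it read 9.39, 9.56 and 9.16 with vehicle and 10.84, 10.97 and 10.98 with TNFα. The groups do not overlap and rank as control vehicle, c-Jun siRNA vehicle, control TNFα and c-Jun siRNA TNFα. The c-Jun siRNA vehicle arrays spread most, with an SD of 0.20 against at most 0.079 in the other groups.

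TNFα raised TNIP1 by 1.48 ± 0.067 in control cells and 1.56 ± 0.067 in knocked-down cells (limma, adjusted p = 3.06e-12 and 2.12e-12). Knockdown raised it under both treatments, by 0.42 ± 0.067 with vehicle and 0.50 ± 0.067 with TNFα (adjusted p = 7.99e-05 and 1.33e-05). The interaction was 0.076, with a 95% interval of -0.12 to 0.28 (adjusted p = 0.778). TNIP1 thus had its highest level, 10.93 ± 0.079, where TNFα and the knockdown came together. Within position column 5 the vehicle effect was 0.39 (adjusted p = 0.164), and the effect under TNFα was 0.55 within column 7, with 1 knocked-down array, and 0.45 within column 9, with 1 control array (adjusted p = 0.000458 and 0.125).

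TNIP2 (probe set 8099029), for ABIN2, which stabilises the kinase TPL2 beside binding A20, did not pass any of the 5 tests. Its 12 arrays lay between 7.54 and 7.80, and the groups overlapped in each of the 4 pairwise comparisons. The TNFα effect was 0.069 with a 95% interval of -0.051 to 0.19 with control siRNA, and 0.10 (-0.016 to 0.22) with c-Jun siRNA. Knockdown changed it by -0.060 (-0.18 to 0.060) with vehicle and by -0.025 (-0.14 to 0.095) with TNFα.

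TNIP3 (probe set 8102594), for ABIN3, the ABIN family member best known as a gene induced by inflammatory signals, differed most between the TNFα-treated groups among the 8. With vehicle it read 4.22, 4.54 and 4.44 under control siRNA and 4.16, 4.29 and 4.46 under c-Jun siRNA, and these arrays overlap. With TNFα it read 6.22, 6.06 and 6.02 under control siRNA but 4.91, 5.06 and 4.96 under c-Jun siRNA, which do not. All vehicle values lie below the array medians, so that background limits how exactly the rise is known. TNFα raised it by 1.70 ± 0.095, or 3.26-fold, in control cells and by 0.67 ± 0.095, or 1.59-fold, in knocked-down cells (limma, adjusted p = 5.88e-11 and 1.85e-05).

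TNIP3 differed between the siRNAs with TNFα, and its difference with vehicle did not pass. Knockdown left 45.8% of its TNFα level (-1.13 ± 0.095, adjusted p = 3.99e-08), and with vehicle its effect was -0.097 with a 95% interval of -0.30 to 0.10 (adjusted p = 0.531). The interaction was -1.03 ± 0.13 (adjusted p = 6.75e-05). Among 17958 genes the fall under TNFα ranked 17910th from the highest fold change. With values below 5 set to 5 the rise in knocked-down cells was 0.021 and did not pass (adjusted p = 1), so that this rise lies near the floor of the scale. The TNFα-end difference was -0.98 within position column 7 and -1.29 within column 9, each with 1 array in a group (adjusted p = 0.00515 and 0.0727).

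CYLD (probe set 7995552) removes lysine-63-linked and linear ubiquitin chains from signalling proteins. On control siRNA arrays it read 6.993, 7.0035 and 7.145 with vehicle and 9.38, 9.30 and 9.39 with TNFα. On c-Jun siRNA arrays it read 7.74, 7.61 and 7.81 with vehicle and 9.39, 9.34 and 9.29 with TNFα. The vehicle groups stand apart and the TNFα groups overlap: CYLD reached the same range from different starts. Its TNFα rise was 2.31 ± 0.057, or 4.95-fold, in control cells and 1.62 ± 0.057, or 3.07-fold, in knocked-down cells (limma, adjusted p = 3.9e-16 and 1.26e-13).

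Knockdown raised CYLD by 0.67 ± 0.057 with vehicle (adjusted p = 3.99e-08). With TNFα the difference was -0.018, with a 95% interval of -0.14 to 0.10 (adjusted p = 0.874). The interaction of -0.69 ± 0.081 (adjusted p = 2.04e-05) is therefore nearly all the difference between the vehicle groups.

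**Figure D2:**
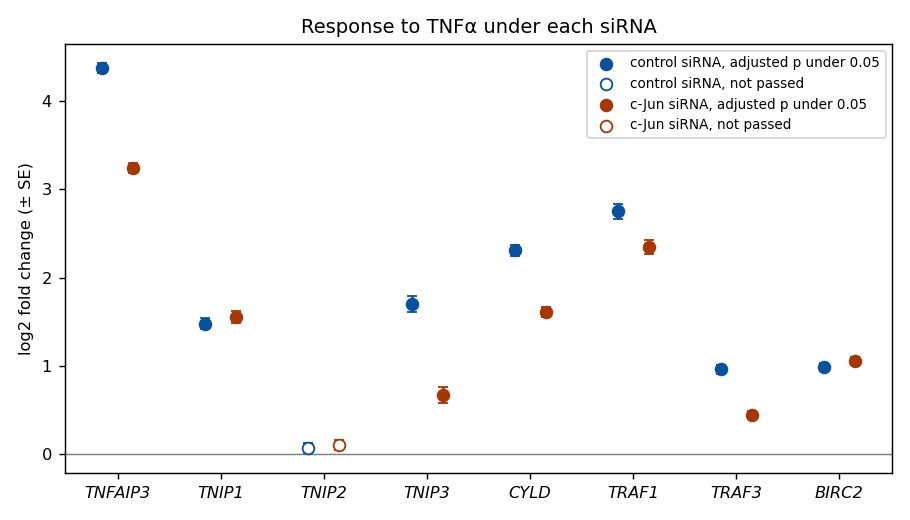
Log2 fold change under TNFα (vertical axis, ± SE of the limma fit, 3 arrays per group) for each regulator (horizontal axis) with control siRNA and with c-Jun siRNA; filled points passed an adjusted p of 0.05. The rises of TNFAIP3, TNIP3, CYLD and TRAF3 are smaller with c-Jun siRNA (interaction passed), and those of TNIP1 and BIRC2 lie close together.

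TRAF1 (probe set 8163825) is the TRAF adaptor without a RING domain, binds BIRC2 and BIRC3 through TRAF2 and is itself an NF-kB target. It read 5.04, 4.85 and 4.87 in control cells with vehicle and 7.70, 7.67 and 7.65 with TNFα. In knocked-down cells it read 5.32, 5.59 and 5.35 with vehicle and 7.87, 7.65 and 7.78 with TNFα. The vehicle groups do not overlap, the TNFα groups do. All vehicle values of TRAF1 lie below the array medians, so that background limits how exactly its rises and its vehicle difference are known. The rises were 2.75 ± 0.083, or 6.73-fold, and 2.35 ± 0.083, or 5.09-fold (limma, adjusted p = 7.15e-15 and 1.25e-13).

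With vehicle the knockdown raised TRAF1 by 0.50 ± 0.083 (adjusted p = 0.000123), and by 0.55 within position column 5 (adjusted p = 0.0592). With TNFα the difference was 0.098 (95% interval -0.078 to 0.27). The interaction of -0.40 (95% interval -0.65 to -0.16) had an adjusted p of 0.0552, and over 26 alternatives this p ran from 0.0343 to 0.19. It passed in 7 of them, among them quantile normalisation (0.0411) and leaving out control siRNA vehicle replicate 1 (0.0356), c-Jun siRNA vehicle replicate 1 (0.0465) or c-Jun siRNA TNFα replicate 1 (0.0432). The call for TRAF1 thus rests on the setting.

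TRAF3 (probe set 7977018) read 8.29, 8.40 and 8.42 in control cells with vehicle and 9.31, 9.35 and 9.35 with TNFα. In knocked-down cells it read 8.73, 8.79 and 8.73 with vehicle and 9.25, 9.11 and 9.21 with TNFα. No pair of groups overlaps, and the knocked-down groups lie inside the span of the control groups. TNFα raised it by 0.96 ± 0.046, or 1.95-fold, in control cells and by 0.45 ± 0.046, or 1.36-fold, in knocked-down cells (limma, adjusted p = 6.85e-12 and 4.07e-07). The interaction was -0.52 ± 0.065 (adjusted p = 4.79e-05).

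Most of that difference in TRAF3 lay with vehicle, where knockdown raised it by 0.38 ± 0.046 (adjusted p = 4.27e-06). Under TNFα it was -0.14 ± 0.046 (adjusted p = 0.0286). This last call ended without control siRNA TNFα replicate 2 (adjusted p = 0.0789) or replicate 3 (0.089), without c-Jun siRNA TNFα replicate 2 (-0.10, 0.149), with arrays centred on their medians (0.0736) and without the mean-variance trend (0.0512). It was -0.23 within position column 7 and -0.074 within column 9, each with 1 array in a group (adjusted p = 0.0493 and 0.46). Over 30 alternatives the adjusted p ran from 0.0166 to 0.46.

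BIRC2 (probe set 7943424) encodes cIAP1, a ligase that ubiquitinates RIPK1 and, with TRAF2 and TRAF3, the kinase of the alternative pathway. It read 9.23, 9.33 and 9.27 in control cells with vehicle and 10.24, 10.33 and 10.23 with TNFα. In knocked-down cells it read 9.487, 9.497 and 9.539 with vehicle and 10.65, 10.49 and 10.55 with TNFα. Its groups do not overlap and have the same order as those of TNIP1. The rises were 0.99 ± 0.044, or 1.99-fold, and 1.06 ± 0.044, or 2.08-fold (limma, adjusted p = 1.86e-12 and 1.06e-12).

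Knockdown raised BIRC2 by 0.23 ± 0.044 with vehicle and by 0.30 ± 0.044 with TNFα (adjusted p = 0.000425 and 3.25e-05). The interaction was 0.067, with a 95% interval of -0.063 to 0.20 (adjusted p = 0.67). Within position columns 7 and 9 the effect under TNFα was 0.21 and 0.36 and did not pass (adjusted p = 0.0715 and 0.119).

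Set side by side, the knockdown raised 6 of the 8 regulators with vehicle and lowered 0, where 28.9% of all genes were called, 14.4% higher and 14.5% lower. With arrays centred on their medians, 3018 genes were called higher and 1913 lower in place of 2583 and 2600, and the 6 calls stayed 6 higher and 0 lower. The 6 were TNFAIP3, CYLD, TRAF1, TNIP1, TRAF3 and BIRC2, by 0.89 down to 0.23. The 2 that did not pass were TNIP2 and TNIP3. Their median was 0.40 over all 8, against -0.0073 over all genes. With TNFα 2 were higher (TNIP1, BIRC2) and 3 lower (TNIP3, TNFAIP3, TRAF3), where 28.5% of all genes were called, 14.1% higher and 14.4% lower, and the median was -0.021 against 0.0011. Both comparisons enter the interaction, so that its 4 calls are not additional evidence. Vehicle arrays of the knockdown all carry position column 5, which holds only replicate 3 of the control siRNA vehicle arrays. Within that column, against that single control array, the differences were 0.88 for TNFAIP3, 0.58 for CYLD, 0.33 for TRAF3 and 0.24 for BIRC2. Their calls there assume that the lone array varies like the knocked-down ones.

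**Figure D3:**
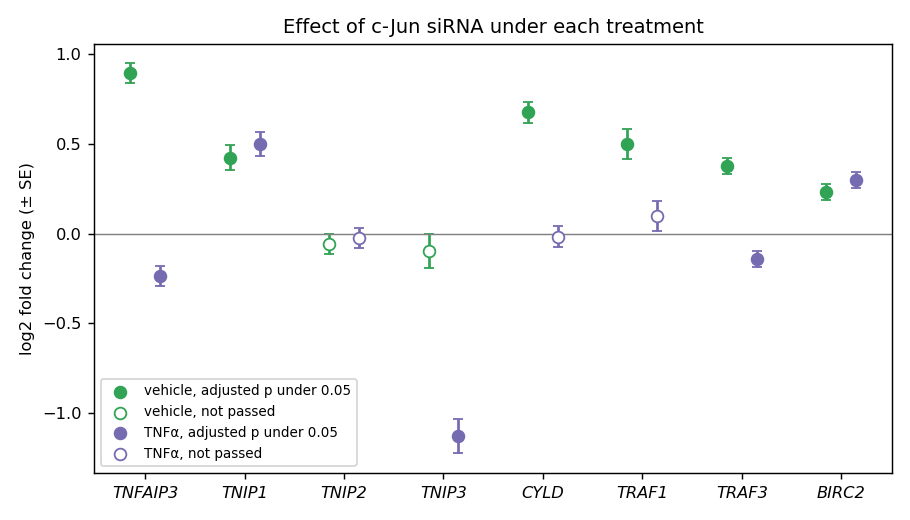
Log2 fold change of c-Jun siRNA over control siRNA (vertical axis, ± SE of the limma fit, 3 arrays per group) for each regulator (horizontal axis) with vehicle and with TNFα; filled points passed an adjusted p of 0.05. TNIP1 and BIRC2 were higher under both treatments, TNFAIP3 and TRAF3 were higher with vehicle and lower with TNFα, and TNIP3 was lower with TNFα at -1.13.

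The groups that differ in both siRNA and treatment were compared as well, so that each gene's 4 levels could be put in order. Knocked-down cells with TNFα stood above control cells with vehicle for 7 of the 8 regulators (limma; of all genes 39.3% were called, 16.4% higher and 22.9% lower). Control cells with TNFα stood above knocked-down cells with vehicle for the same 7 (38.9% called, 16.6% higher and 22.3% lower). These comparisons share their arrays with those above. TNFAIP3 and TRAF3 ran, from lowest to highest, as control vehicle, knocked-down vehicle, knocked-down TNFα and control TNFα, with each step called. TNIP1 and BIRC2 differed in that the TNFα groups came in the other order. In CYLD and TRAF1 the TNFα groups were neighbours that did not differ beyond the threshold, and in TNIP3 the vehicle groups were. TNIP2 had no neighbours that differed, and its widest gap, 0.13 between control cells with TNFα and knocked-down cells with vehicle, did not pass (adjusted p = 0.0869) although those arrays did not overlap. With quantile normalisation that gap was 0.16 and passed (adjusted p = 0.0395). With values below 5 set to 5, TNIP3 in knocked-down cells with TNFα stood 0.021 above control cells with vehicle and did not pass (adjusted p = 0.985).

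The log2 scale weighs a higher start against the rise, so the TNFα increment was also taken on the linear scale. With c-Jun siRNA the increment of TNIP3 was 24.5% of that with control siRNA (11.7 ± 1.57 against 47.7 ± 3.24 linear units, SE). Most of its values lie under the array medians, and with values below 5 set to 5 that share was 1.3%. That of TRAF3 was 49.7%, that of TNFAIP3 79.8% and that of CYLD 83.4%. TRAF1 gained 176 ± 10.0 linear units against 174 ± 2.57, or 101%. BIRC2 and TNIP1 gained 129% and 145% of the control increment. TNIP3 and TRAF3 stand lowest with and without that floor, and no test was made of it.

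Likeness of pattern was measured as Pearson's r over the 12 arrays, which fall into the 4 groups and share the large step between vehicle and TNFα. The genes closest to TNFAIP3 were XAF1, RIGI and FNDC3B (r = 0.999, 0.999 and 0.998). Closest to TNIP1 were CASTOR1, PDCD1LG2 and PRKCD (0.995, 0.99 and 0.99), and to BIRC2 SLFN5, C3 and CASTOR1 (0.997, 0.992 and 0.992). CYLD lay nearest to SAMD9L, DDX60 and USP43 (0.998, 0.997 and 0.997), TRAF1 to FNDC3B, LIF and XAF1 (0.998, 0.997 and 0.997) and TRAF3 to ASCC3, APOL6 and PARP14 (0.991, 0.99 and 0.988). TNIP3 had CPNE8, CD55 and CYP7A1 (0.987, 0.985 and 0.983). For TNIP2, whose arrays hardly vary, the highest r was that of MMP25, at 0.924. Among the regulators TNFAIP3 and CYLD were most alike, with r = 0.994, as were TNFAIP3 and TRAF1, and TNIP3 and TNIP1 had r = 0.646.

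Other genes of the pathway moved less. Of 52 listed, 43 were measured, and TNFα raised 24 and lowered 4 of them in control cells, and raised 17 and lowered 5 in knocked-down cells. That is 65.1% and 51.2% called, against 35.7% and 29.6% of all genes. Of all genes 13.8% and 11.3% were called higher and 21.9% and 18.3% lower, which is also the background for the smaller lists below. With the position column as a fixed block the calls in knocked-down cells were 13 higher and 0 lower, so that none of the 5 falls there passed: those of OTUD7B, RNF11, ZRANB1, SHARPIN and TBKBP1. The medians of these 43 genes were 0.16 and 0.064. TIFA, an adaptor that joins TRAF6 and TRAF2, rose most, by 2.29 ± 0.079 and 1.94 ± 0.079. Among 11 measured other TRAF and IAP genes 6 rose and 1 fell with control siRNA, with TRAF3IP2, the adaptor of interleukin-17 receptors, at 0.70. With c-Jun siRNA 4 rose, with TRAF3IP2 at 0.53.

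In the receptor complex 4 of 6 genes rose under each siRNA and 0 fell. TNFRSF1B, the second TNF receptor, which binds TRAF2 directly, rose by 0.86 and 0.76, the protease CASP8 by 0.86 and 0.62, and the caspase-8 inhibitor CFLAR by 0.63 and 0.66, in control and knocked-down cells. Knockdown lowered TNFRSF1B by 0.61 log2 units with vehicle and by 0.72 with TNFα, and raised CASP8 by 0.44 and 0.21 and CFLAR by 0.40 and 0.42. The interaction did not pass for these 3 genes. Of the 4 measured genes of linear ubiquitin assembly and its removal, 3 rose and SHARPIN fell with TNFα in control cells (-0.21, and -0.15 in knocked-down cells). RBCK1, the HOIL-1 subunit, rose by 0.63 and, with c-Jun siRNA, by 0.51. RNF31, the catalytic subunit HOIP, rose by 0.20 in control and 0.30 in knocked-down cells, and knockdown changed it by -0.19 with vehicle.

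Of 7 genes of the TAK1 and IKK complexes 5 rose and 1 fell with TNFα and control siRNA, and 3 rose with c-Jun siRNA. TAB3, a subunit that reads ubiquitin chains, rose by 0.64 and 0.40, with an interaction of -0.24 ± 0.045 (limma, adjusted p = 0.00236). The kinase gene CHUK rose by 0.37 and 0.17 and IKBKB by 0.16 and 0.30, and the interaction did not pass for either. Knockdown lowered TAB2, the other chain reader, by 0.26 with either treatment. TAB3 was 0.097 higher with vehicle and 0.15 lower with TNFα.

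The TANK and TBK1 module held the opposite case to TNFAIP3. IKBKE, a kinase of the interferon pathway, stood at 8.53 and 8.34 with vehicle under control and c-Jun siRNA, and at 9.05 and 9.58 with TNFα. Knockdown thus lowered it with vehicle (-0.19 ± 0.047) and raised it with TNFα (0.53 ± 0.047), and its interaction was 0.72 ± 0.066 (limma, adjusted p = 1.21e-06). OPTN, which binds ubiquitin chains with a domain like that of the ABIN proteins, rose by 1.17 and 0.85 with TNFα, with an interaction of -0.32 ± 0.061 (adjusted p = 0.00276). Its level with vehicle was 0.24 higher after knockdown. TANK rose by 0.56 and 0.61. In all, 4 of 5 genes of the module rose under each siRNA, and TBKBP1 fell (-0.54 under each), in knocked-down cells only without the fixed block.

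Partners and relatives of A20 moved little. Of 8 measured, TAX1BP1, which links A20 to its substrates, rose with TNFα and control siRNA (0.16 ± 0.036), and 3 were called lower in knocked-down cells, among them the A20 relatives OTUD7B (-0.27) and ZRANB1 (-0.15), but 0 with the fixed block. Knockdown raised TAX1BP1 by 0.31 with vehicle and 0.22 with TNFα and lowered RNF11, another A20 partner, by 0.15 with vehicle and by 0.25 with TNFα. OTUD7B was 0.38 lower with TNFα. Of 2 measured ubiquitin-conjugating enzymes UBE2N, which builds lysine-63-linked chains, rose by 0.13 with TNFα and control siRNA and by 0.15 with knockdown and vehicle. In all, knockdown raised 8 and lowered 5 of the 43 genes with vehicle, and raised 5 and lowered 8 with TNFα. These are 30.2% called in each, near the 28.9% and 28.5% of all genes, and with the fixed block the vehicle counts were 5 higher and 6 lower. TRAF5 was higher after knockdown by 0.35 and 0.37, TIFA by 0.45 with vehicle, and TRAF3IP2 was 0.31 lower with TNFα. The interaction test passed for TAB3, IKBKE and OPTN, 3 of 43 or 6.98%, near the 5.47% of all genes.

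**Figure D4:**
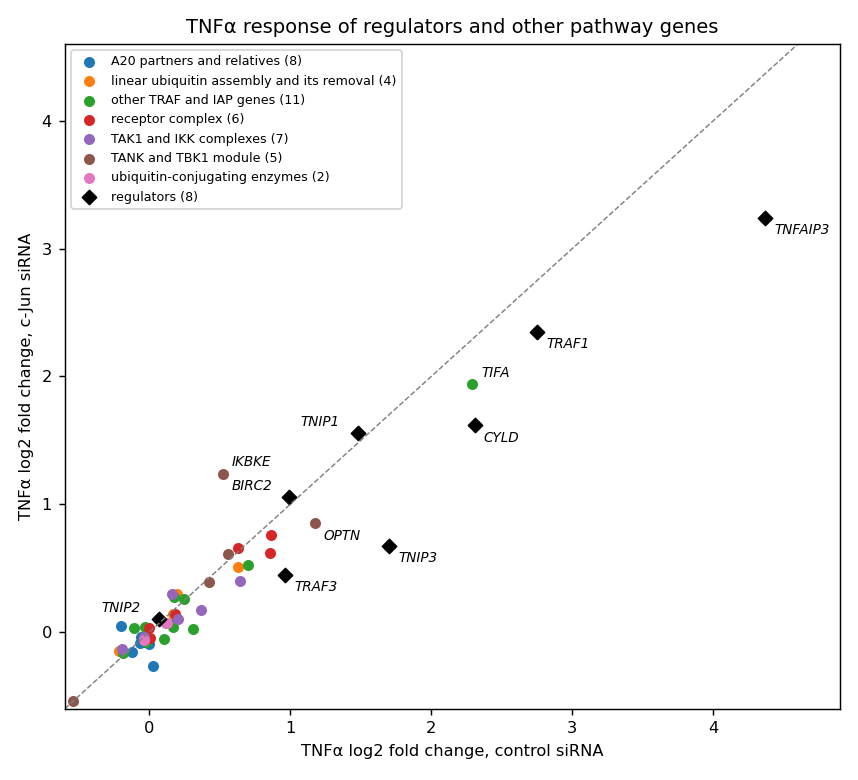
Log2 fold change under TNFα with control siRNA (horizontal axis) and with c-Jun siRNA (vertical axis) for the 8 regulators (diamonds) and 43 other pathway genes (dots, coloured by list); the dashed line marks equal responses. TNFAIP3, CYLD, TNIP3 and TRAF3 lie below the line, IKBKE lies above it, and most other genes sit near the origin.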

How the data were processed

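The deposited values are log2 expression per probe set, 1 array per sample. Per the submitters' processing notes, Affymetrix Expression Console 1.1 and PLIER were used, with no role given for each. The base of the logarithm was inferred from the range of 2.27 to 14.0, and no further normalisation was applied. Genome build and annotation were not given in the sources used here. Of 33297 probe sets, 19181 carried 1 gene symbol and 2055 several; where a gene had more than 1, the probe set with the highest 12-array mean was used.

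limma 3.58.1 in R 4.3.3 fitted 1 mean per group to all 12 arrays (8 residual degrees of freedom) with a mean-variance trend. Tests were two-sided, Benjamini-Hochberg adjusted over all 17958 genes and called at 0.05. The fit was also run on simulated data with independent noise, without position columns or repeated arrays, so that it did not test those limits. Figures were drawn with matplotlib 3.10.9 in Python 3.11.15. Promoters came from a RefSeq table; the kappaB consensus of 10 bases was added after the shorter form had been searched, and within-column fits and linear increments were also added after seeing the data.

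The genes, the pathway lists and the tests were chosen with earlier results of these data known. All 10 genes are named, with the 2 called genes of largest change per pathway list and comparison, JUN, and the 3 genes most alike in pattern; other gene values given were chosen after they were seen. A planned comparison of protein sequences was not made. The position column was read from the array names, which is an inference.

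Same-numbered arrays were checked for pairing. Correlations of their deviations from group means ran from -0.059 to 0.088, so that the numbers do not pair the samples. Alternatives were other normalisations, floors, filters, variance models, blocks, thresholds and each array left out.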

Additional observations from a re-analysis of the deposited data

Results flagged for a closer look

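The responses of 4 regulators to TNFα differed between the siRNAs by the interaction test in limma. The difference of log2 fold changes, c-Jun siRNA minus control siRNA, was -1.13 for TNFAIP3, -1.03 for TNIP3, -0.69 for CYLD and -0.52 for TRAF3. Groups of 3 arrays were not screened for outlying arrays.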

How the results depend on the processing

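Of 40 regulator results (8 genes, 5 comparisons), 33 kept direction and side of the threshold under each alternative run, the fits within a position column aside. TNIP3 lies among the dimmest 30% of genes and TRAF1 among the dimmest 50%. Filters that left these genes out therefore did not test them, and this was not counted as a change. The cause of the changes below was not tested. Knocked-down arrays with vehicle all carry column 5 and those with TNFα columns 7 and 9, so that these groups share no column. For TNFα with c-Jun siRNA and for the interaction no fit within a column was possible. Between those groups alone, column and treatment cannot be told apart. With the position column as a fixed block, calls over all genes went from 5320 to 2376 for TNFα with c-Jun siRNA, from 5183 to 3448 for knockdown with vehicle and from 983 to 531 for the interaction, and pathway calls for TNFα with c-Jun siRNA from 22 to 13. At an adjusted p under 0.01 the interaction called 553 genes, and without the dimmest 50% of genes 5 pathway genes. Within position column 5 knockdown with vehicle called 2264 genes and 6 pathway genes. Knockdown with TNFα called 3020 genes and 3 regulators within column 7, and 0 genes, 0 pathway genes and 0 regulators within column 9, where 1 and 2 arrays were compared. Signs turned only in results that did not pass: TNIP2 with knockdown and vehicle (0.017 with the fixed block and within column 5), with knockdown and TNFα (0.054 within column 7) and in the interaction (-0.029 with the fixed block), and TRAF1 with knockdown and TNFα (-0.0052 within column 7). Leaving out each array in turn gave ranges that cross 0 for CYLD with knockdown and TNFα (-0.046 to 0.0083) and for the interactions of TNIP1 (-0.028 to 0.17) and TNIP2 (-0.0050 to 0.073).

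With a replicate block the regulators called were 7, 7, 6, 5 and 4 in the 5 comparisons, as without it, and the interaction called 937 genes against 983; it changed no call of a regulator. Each regulator had 1 probe set, so no separate fit of probe sets was run.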
